A study of Mus musculus with 30 samples.

Results

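Neuronal and synaptic genes were followed across mouse forebrain and CD11b-bead isolates after loss of interleukin-34 (IL-34), the product of Il34. The 36 genes were taken by symbol from a count table of 51752 genes, in which each was listed in 1 row, and 35 of them had reads. They comprise 16 glutamatergic genes (6 of neuronal identity, 7 receptor subunits, 3 scaffold proteins of the excitatory synapse), 8 GABAergic genes and 12 genes that most neurons share (6 presynaptic, 6 pan-neuronal). The genotype experiment compared 3 Il34 knockout (KO) mice with 4 heterozygous (Het) mice, so each control carries 1 intact Il34 allele and not 2. The labels do not say how the allele was made. The antibody experiment compared 4 wild-type (WT) mice given a blocking antibody against IL34 (anti-IL34) with 4 WT mice given the control antibody anti-gp120. Every mouse was perfused with saline and gave 1 library of whole forebrain and, from the other hemisphere, 1 library of cells bound to CD11b magnetic beads, which the labels call microglia. Het and anti-gp120 arms held 2 males and 2 females each, KO 1 male and 2 females, anti-IL34 3 males and 1 female. Age, antibody dose and antibody schedule were not in the labels.

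IL-34 is a ligand of the receptor Csf1r, on which microglia depend, and in the forebrain it is made largely by neurons. Glutamatergic neurons fill their vesicles through the transporter encoded by Slc17a7, and the released glutamate acts on AMPA, NMDA and metabotropic receptors that scaffold proteins hold in the postsynaptic density. GABAergic interneurons make GABA with the decarboxylases encoded by Gad1 and Gad2 and load it through Slc32a1. Both kinds of neuron release transmitter through a shared apparatus of SNARE proteins and the calcium sensor encoded by Syt1. The series title names excitatory neurons as the source of IL-34, and the glutamatergic members are therefore kept apart from the GABAergic ones here.

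Library totals were 15.1 to 75.2 M (mega) counts in forebrain and 15.8 to 50.5 M in isolates. Levels are CPM, the counts of a gene per M counts of its library, with library sizes scaled by TMM within the 15 libraries of a tissue, and they are listed by animal number throughout: Het 1, 20, 21, 23, KO 3, 6, 24, anti-gp120 1, 7, 8, 15 and anti-IL34 2, 10, 11, 24. Il34 in forebrain was at 19.2 to 23.5 CPM in Het and 6.78 to 8.73 CPM in KO animals, and at 31.7 to 39.1 CPM under anti-gp120 and 36.5 to 41.1 CPM under anti-IL34. The 10 markers of microglia summed to 10973 to 19574 CPM in Het isolates against 244 to 275 CPM in Het forebrain, and none of them was at 0 in any library. In forebrain the same sum was 109 to 124 CPM in KO animals, 393 to 503 CPM under anti-gp120 and 185 to 238 CPM under anti-IL34. The deposited length of a gene equalled its whole span, introns included, in GENCODE M21 (GRCm38) for all 36 members, and 22 members have another gene in or across that span. Tubb3, a neuronal tubulin at chr8:123411424-123422015, had 0 counts in 30 of 30 libraries and lies whole inside Gm20388 on the same strand (chr8:119910841-124345722), so the 0 gives no measure of its expression. Nefl, the light neurofilament subunit, lies whole inside the span of Nefm on the other strand, so reads of this pair are uncertain.

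Promoter sequence is shown for Neurod6 and Npy, the glutamatergic and the GABAergic member whose KO and Het forebrain values did not overlap. Neither passed the edgeR test, and 9.05% of all genes had arms without overlap in either direction. Lack of overlap is thus a rule of choice here and not a result about these genes. Sequence is also shown for 2 members that carry a full cyclic-AMP response element, Syn1 and Sst. The windows lie directly upstream of the RefSeq start site (GRCm38.p6), run 5′ to 3′ on the strand of the gene and, for Neurod6, Npy and Syn1, leave out bases inside the GENCODE gene. They are chr6:55681264-55681513 (minus strand), chr6:49822460-49822709 (plus strand) and chrX:20921005-20921168 (minus strand), and for Sst the 30 bases around the element, chr16:23890874-23890903 (minus strand), which lie inside the GENCODE gene because its start is annotated further upstream. Capitals mark the element TGACGTCA and, in Syn1, TTCAGCACC, one arm of the element bound by the repressor REST.
Neurod6: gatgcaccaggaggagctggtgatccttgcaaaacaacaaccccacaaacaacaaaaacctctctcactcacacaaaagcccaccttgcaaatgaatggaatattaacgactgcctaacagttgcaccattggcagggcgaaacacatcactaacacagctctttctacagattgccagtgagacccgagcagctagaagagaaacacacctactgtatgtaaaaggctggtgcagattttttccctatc
Npy: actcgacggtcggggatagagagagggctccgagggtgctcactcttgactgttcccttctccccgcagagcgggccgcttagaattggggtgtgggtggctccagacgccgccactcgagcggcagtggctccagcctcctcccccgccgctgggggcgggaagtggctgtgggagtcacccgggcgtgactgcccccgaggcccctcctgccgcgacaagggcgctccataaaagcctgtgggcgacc
Syn1: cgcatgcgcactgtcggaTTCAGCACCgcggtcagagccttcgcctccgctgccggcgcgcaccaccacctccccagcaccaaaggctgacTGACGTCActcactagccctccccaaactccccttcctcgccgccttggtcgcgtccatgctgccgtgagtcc
Sst: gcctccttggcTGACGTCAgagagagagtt
Searched on both strands of the RefSeq windows, TGACGTCA was in 1.55% of 32851 promoters and, among the 26 members with an entry, in Syn1 and Sst. TTCAGCACC was in 0.301% of promoters and 1 member, Syn1, and the E-box CAGATG, a motif of the Neurod family, in 14.4% of promoters and in Gad2, Neurod2 and Nrgn. These motifs do not overlap one another in the printed stretches, and a match is a description of the letters only.

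In whole forebrain, KO and Het animals had close levels of the neuronal genes. Of 35 members tested, 1 passed the test: Chl1, which encodes a cell adhesion molecule of the L1 family, was higher in KO forebrain. None passed lower. In RNA of a whole tissue, fewer cells of a type and less RNA per cell cannot be told apart. Across all 19343 genes tested, 0.00517% were called higher, which is Chl1 alone, and 0.615% were called lower. The members' median log2 fold change was 0.02, against -0.00021 over all genes, and the 95% intervals of all members lay between -0.40 and 0.48. The arms did not overlap for 3 of 35 members, Chl1 and Neurod6 (higher) and Npy (lower), against 9.05% of all genes in either direction.

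Chl1, at chr6:103510586-103750211, was at 262, 260.1, 271 and 252 CPM in Het and 294, 316 and 299.9 CPM in KO animals. All 3 KO animals stood above all 4 Het animals. Means were 261 ± 7.6 CPM (SD, n = 4) for Het animals and 303 ± 11.2 CPM (SD, n = 3) for KO animals (log2 fold change 0.22, SE 0.0434, 95% interval 0.12 to 0.31, adjusted p = 0.0468, edgeR quasi-likelihood test with Benjamini-Hochberg adjustment). The call was lost in each of the 7 fits that left out 1 library, with adjusted p of 0.0616 to 0.242 and log2 fold changes of 0.19 to 0.27. It was also lost when all 15 forebrain libraries shared 1 estimate of the spread (log2 fold change 0.19, adjusted p = 1.00, edgeR). In the antibody experiment Chl1 was at 187, 126, 258 and 256 CPM under anti-gp120 and 208, 255, 166 and 231 CPM under anti-IL34, and the arms overlapped (log2 fold change 0.16, SE 0.213, 95% interval -0.31 to 0.63, adjusted p = 0.999 by the same test).

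Neurod6, a transcription factor of cortical and hippocampal excitatory neurons at chr6:55677822-55681263, was at 70.3, 54.0, 62.2 and 70.1 CPM in Het and 76.6, 78.8 and 82.4 CPM in KO animals. The KO animals were again all above the Het animals, but the difference did not pass (log2 fold change 0.31, SE 0.0802, 95% interval 0.14 to 0.48, adjusted p = 0.179, edgeR). Without Het animal 23 it did pass, at adjusted p = 0.0441 by the same test, and DESeq2 gave adjusted p = 0.0140. Under the antibodies Neurod6 was at 59.6, 67.2, 84.2 and 68.1 CPM under anti-gp120 and 68.8, 68.5, 97.1 and 57.3 CPM under anti-IL34, and anti-IL34 animal 11 held the highest value. Npy, a neuropeptide of a subset of interneurons at chr6:49822710-49829507, was at 33.7, 30.2, 30.7 and 31.1 CPM in Het and 28, 28.2 and 27.6 CPM in KO animals. Its KO values all lay below the Het values and did not pass (log2 fold change -0.16, SE 0.0532, 95% interval -0.27 to -0.04, adjusted p = 0.439, edgeR). The antibody arms overlapped at 37.4, 38.5, 46.1 and 28 CPM under anti-gp120 and 36.1, 34.4, 34.4 and 29.6 CPM under anti-IL34.

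**Figure D1:**
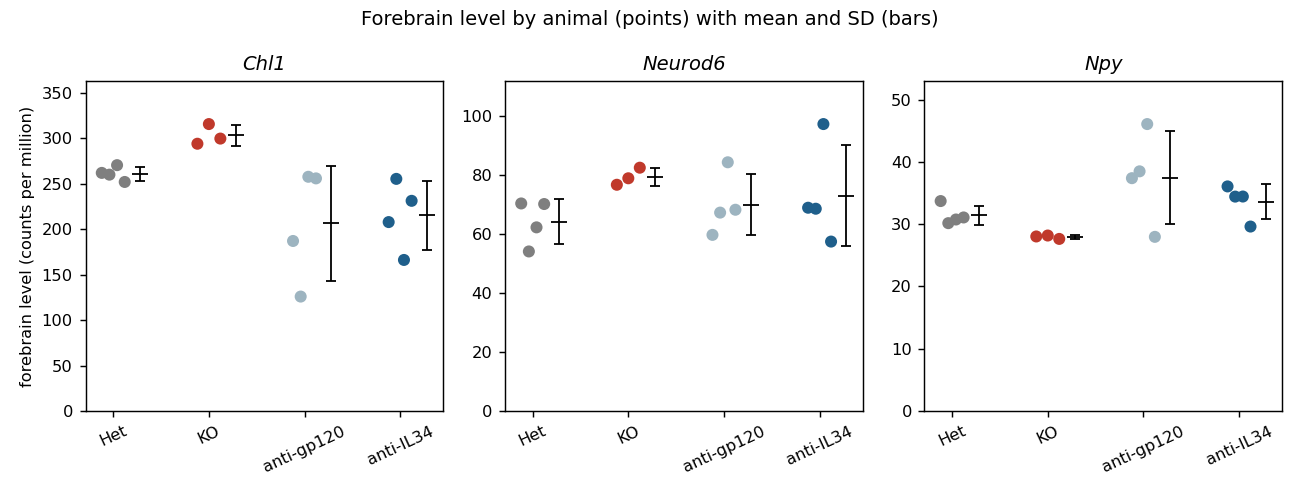
Forebrain level in CPM (y axis, from 0) of Chl1, Neurod6 and Npy in each animal (points) of the 4 arms (x axis), with the mean and SD of the arm in black. KO points lie above all Het points for Chl1 and Neurod6 and below them for Npy. Of all genes, 9.05% had KO and Het arms without overlap, and of these 3 genes only Chl1 passed the edgeR test. The antibody arms overlap for all 3 genes.

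By role, the genotype experiment gave the following picture in forebrain. The 6 genes of glutamatergic identity had log2 fold changes of -0.0085 to 0.31, the 7 glutamate receptor subunits -0.03 to 0.07, and the scaffolds Dlg4, Shank3 and Homer1 -0.08 to 0.02. Tbr1, a transcription factor of deep-layer neurons, was at 116, 96.7, 108 and 119 CPM in Het and 116, 119 and 123 CPM in KO animals, which overlap. The 8 GABAergic genes ranged from -0.19 (Pvalb) to 0.13 (Gabrb2), with a median of -0.03 against 0.02 for the 16 glutamatergic genes. Gabrb2, a subunit of the GABA-A receptor that sits in the receiving cell, was at 227, 213, 234 and 237 CPM in Het and 234, 243 and 271 CPM in KO animals. The vesicle SNARE gene Vamp2 was at 956, 894, 907 and 923 CPM in Het and 956, 929 and 956 CPM in KO animals, and the 6 presynaptic genes spanned 0.04 to 0.10.

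Blocking IL-34 with the antibody gave no called member in forebrain. By edgeR, 0 of 35 members passed the adjusted threshold and 0 passed an unadjusted p of 0.05, and DESeq2 called 0 as well. The background was 0.717% of 17143 genes called in either direction and 4.86% at unadjusted p. The arms overlapped for all 35 members, while they did not for 3.27% of all genes. The members' median log2 fold change was 0.0015, and their 95% intervals lay between -0.52 and 0.63.

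The members with the smallest p in the receptor, GABAergic, scaffold and presynaptic classes were Grin2a, Pvalb, Shank3 and Syt1. Grin2a, an NMDA receptor subunit that becomes prominent as circuits mature, was at 351, 369.6, 403 and 409 CPM under anti-gp120 and 358, 445, 453 and 391 CPM under anti-IL34. Anti-IL34 animals 10 and 11 held the highest values and animal 2 lay among the controls (log2 fold change 0.14, adjusted p = 0.999, edgeR). Pvalb, a calcium buffer of fast-spiking interneurons, was at 15.4, 13.5, 13.3 and 12.9 CPM under anti-gp120 and 12.9, 12.7, 11.6 and 12.8 CPM under anti-IL34, and 3 of 4 anti-IL34 animals lay below every control (log2 fold change -0.18, adjusted p = 0.999, edgeR). Shank3, a scaffold of the postsynaptic density, was at 236, 289, 269 and 192 CPM under anti-gp120 and 200.5, 255, 218 and 221 CPM under anti-IL34, where anti-gp120 animal 15 was the lowest of all 8 (log2 fold change -0.17, adjusted p = 0.999, edgeR). Syt1 was at 1932, 1959.6, 2020.3 and 2075 CPM under anti-gp120 and 2109, 2087, 2206 and 2006 CPM under anti-IL34, where anti-IL34 animal 24 lay below 2 of the controls (log2 fold change 0.09, adjusted p = 0.999, edgeR). By role, the 16 glutamatergic genes had a median of 0.0058, the 8 GABAergic genes -0.03 and the shared neuronal genes 0.0048. The 3 scaffold genes all had negative signs, from -0.17 to -0.03. Among 8 striatal genes, 8 had negative signs in this comparison, and their sum was lowest in anti-IL34 animals 2 and 11 (560.0 and 801 CPM, against 891 to 1193 CPM under anti-gp120). The part of dissection in these values was not tested.

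A contrast that averages the deletion and the antibody effect over all 15 forebrain libraries gave the tightest limits. It called 0 of 35 members (edgeR, DESeq2 also 0), against 1.28% of 19724 genes. At an unadjusted p under 0.05 there were 4 members, against 7.05% of all genes: Neurod6 (0.19), Gabrb2 (0.11), Pvalb (-0.16) and Npy (-0.16), as log2 fold changes, with adjusted p of 0.672 to 0.688. The 95% intervals of all members lay between -0.32 and 0.40. The deletion effect minus the antibody effect was called for 0 members (edgeR, 0 also at unadjusted p under 0.05 and by DESeq2), against 0.0101% of genes, and its intervals reached from -0.47 to 0.60. The summed GABAergic level per 100 CPM of summed glutamatergic level was 9.28 to 11.1 in Het, 10.0 to 10.4 in KO, 8.22 to 11.7 under anti-gp120 and 9.72 to 10.8 under anti-IL34, so both loss arms lay within the range of their controls.

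**Figure D2:**
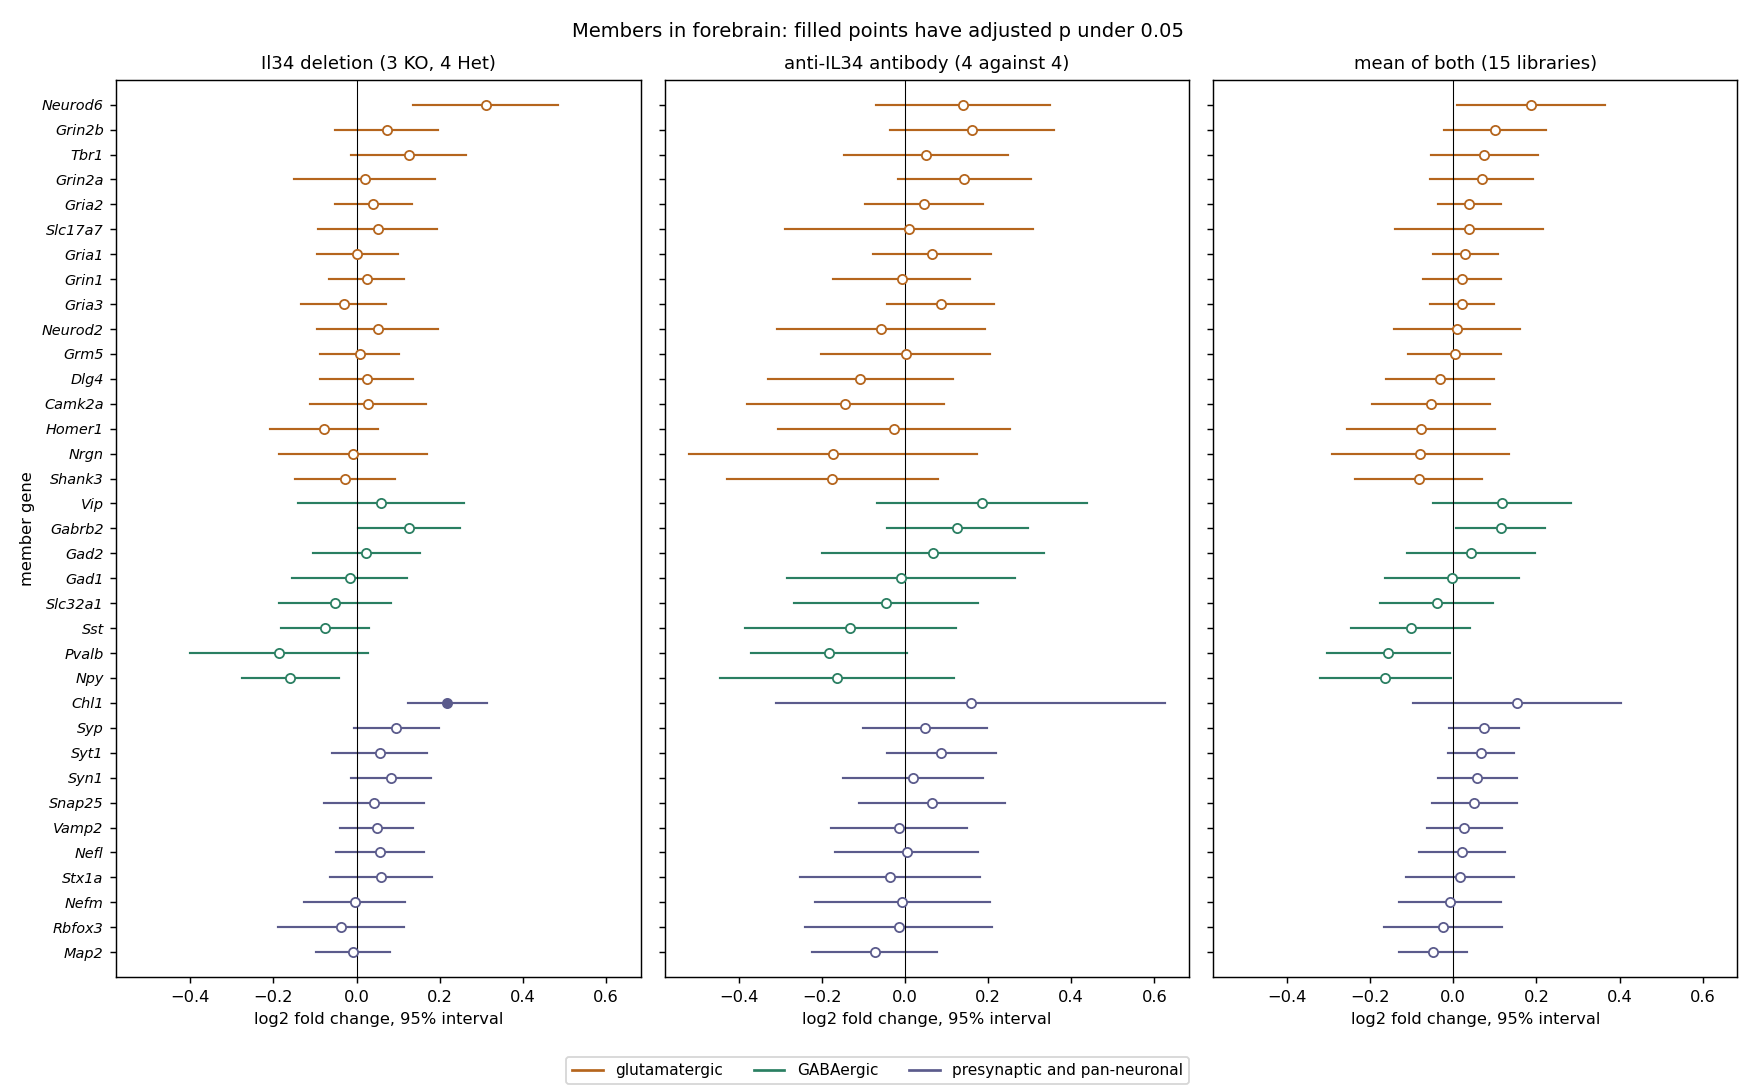
Log2 fold change with its 95% interval (x axis) of each member (y axis) in forebrain for the deletion (left), the antibody (middle) and the mean of both over 15 libraries (right), coloured by class. The 1 filled point, Chl1 in the deletion panel, is the only call, and all intervals lie between -0.52 and 0.63.

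The CD11b isolates held the members at lower levels than forebrain, but not evenly. In the 8 control animals, 35 of 35 members tested were lower in isolates (edgeR, adjusted p of 1.24e-13 to 0.0325), against 43% of 19952 genes, with a median log2 difference of -3.56. The forebrain and isolate libraries of an animal entered this fit as separate samples. With the animal as a block, 35 members were called as well, against 82.8% of genes in either direction. The medians by role were -4.85 for glutamate receptor subunits, -4.37 for GABAergic genes, -3.74 for presynaptic genes, -3.37 for pan-neuronal genes, -2.99 for glutamatergic identity and -0.88 for the scaffolds. GABAergic genes lay between -6.60 and -3.28, so none of them was among the 10 members least reduced.

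Vip, a neuropeptide of a small interneuron class, was lowest relative to forebrain, at 1.03% of it (log2 -6.60, 95% interval -7.06 to -6.15). In isolates it was at 0.346, 0.393, 0.105 and 0.0733 CPM in Het and 0.165, 0.208 and 0.135 CPM in KO animals, against 25.2, 20.2, 22.8 and 25.4 CPM in Het forebrain. Next came Grin2a at 1.87%, Grin2b, the NMDA receptor subunit of early development, at 2.35% and Syt1 at 2.52%. Grin2b was at 1274, 1145, 1301 and 1348 CPM in Het forebrain and 38.5, 39.8, 7.72 and 19.8 CPM in the isolates of the same animals. For these 4 genes all 15 isolates lay below the forebrain library of the same animal.

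At the other end stood Camk2a, the alpha subunit of the calcium/calmodulin-dependent kinase of excitatory synapses, at 63.5% of forebrain (log2 -0.66, 95% interval -1.23 to -0.09). Its call was lost in 5 of the 8 fits that left out 1 library (adjusted p of 0.00390 to 0.0894, edgeR). Camk2a was at 2361, 2155, 2039.8 and 2349 CPM in Het forebrain and 1906, 1143, 501 and 1154 CPM in Het isolates. Shank3, at 54.9%, and Dlg4, which encodes PSD-95, at 54.4%, followed, and then Map2, a microtubule protein of dendrites, at 36%. The messengers of Camk2a, Shank3, Dlg4 and Map2 are known to travel into dendrites, which is stated as background and was not tested here. Which of the other, more reduced members share this trait was not examined. In forebrain Camk2a gave 10.0 to 13.7% of the members' summed CPM, and in isolates 30.5 to 43.0%.

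**Figure D3:**
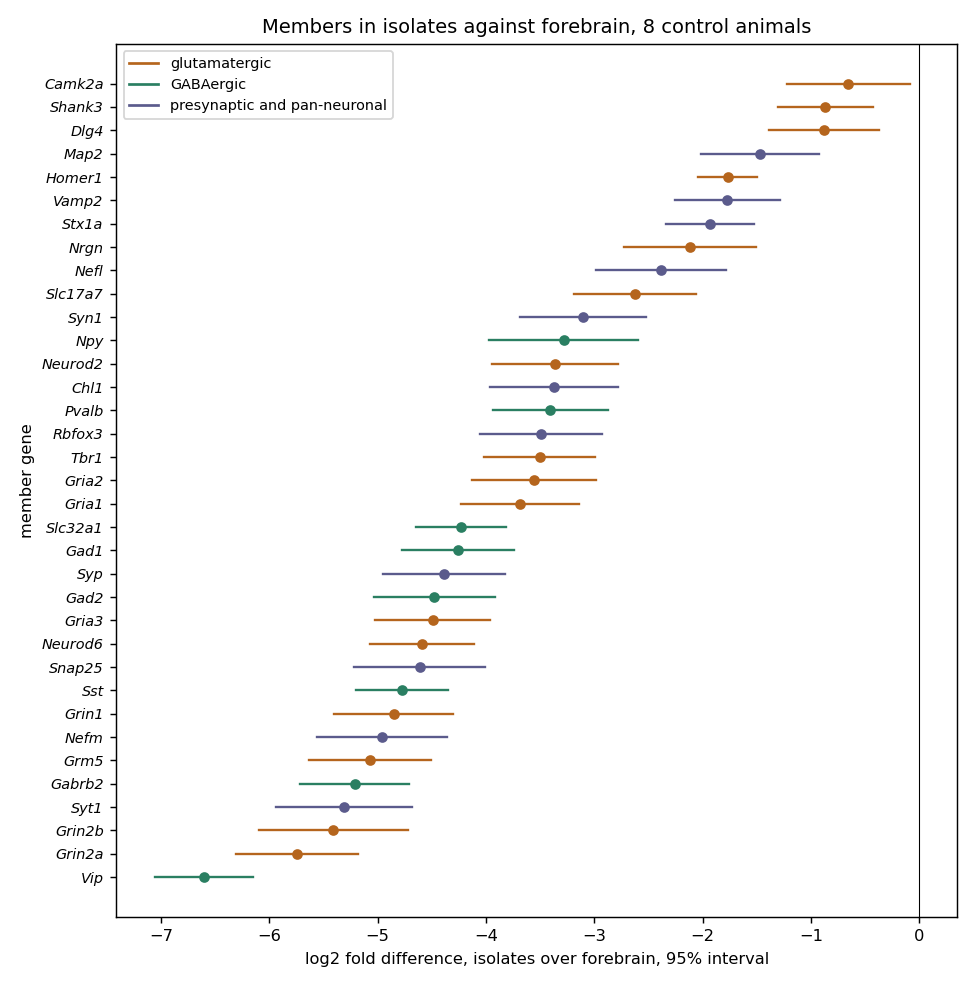
Log2 fold difference of isolates over forebrain with its 95% interval (x axis) for each member (y axis) in the 8 Het and anti-gp120 animals, coloured by class. All 35 points lie below 0, from -6.60 for Vip to -0.66 for Camk2a.

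The members' summed level in isolates tended to be higher where IL-34 was lost, with overlap between the arms in both experiments, while the forebrain sums were close. Isolate sums were 1641 to 5236 CPM in Het, 5153 to 7511 in KO, 2387 to 7889.6 under anti-gp120 and 5897 to 9551 under anti-IL34. Forebrain sums were 19661 to 21156 CPM in Het, 20423 to 21738 in KO, 20456 to 22355 under anti-gp120 and 20755 to 22004 under anti-IL34. As a percentage of the same animal's forebrain sum, the isolate held 25, 17.0, 8.10 and 16.1% in Het and 36.1, 25.2 and 34.3% in KO animals, so the highest Het isolate (animal 1) and the lowest KO isolate (animal 6) were next to each other. In the antibody experiment it held 11.4, 22.8, 14.2 and 38.6% under anti-gp120 and 42.2, 44.0, 26.8 and 41.0% under anti-IL34, where the isolate of anti-gp120 animal 15 lay among the anti-IL34 values. Without Camk2a the percentages were 17.9, 12.6, 6.26 and 12% in Het, 25.4, 18.9 and 24.8% in KO, 8.24, 15.4, 10.1 and 25.7% under anti-gp120 and 27.4, 29.3, 17.6 and 26.5% under anti-IL34. Anti-gp120 animal 15 again stood among the anti-IL34 animals. These percentages set side by side levels scaled within each tissue. With 1 scaling over all 30 libraries, Het animal 1 was at 26.2% and KO animal 6 at 25.7%, so that the arms overlapped, and the medians were 17.7% in Het, 37.1% in KO, 19.4% under anti-gp120 and 45.9% under anti-IL34.

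The isolates also differed in markers of other cells. The microglia sum was 10973 to 19574 CPM in Het against 4217 to 4803 in KO, and 14166 to 19082 under anti-gp120 against 6086 to 9426 under anti-IL34. The 8 astrocyte markers summed to 3147 to 11083 CPM in Het, 12572 to 15486 in KO, 4695 to 18270.2 under anti-gp120 and 9997 to 18594 under anti-IL34. In the mean of both effects over 15 isolates, 5 of 8 astrocyte and 5 of 8 oligodendrocyte markers rose, 10 of 10 microglia markers fell and 4 of 4 heat-shock genes fell (edgeR), with medians of 0.81, 0.84, -1.36 and -0.96. Over all genes in this contrast, 21% were called higher and 23.2% lower. The oligodendrocyte sum was 3188 to 10455 CPM in Het, 8163 to 18772 in KO, 4165 to 10230.2 under anti-gp120 and 6256 to 13406 under anti-IL34. Choroid plexus markers (6) summed to 1583 to 3786 CPM in Het, 1109 to 2987 in KO, 4.13 to 9.26 under anti-gp120 and 8.64 to 2061 under anti-IL34, and 2 of 6 were called higher in the mean contrast, near the share over all genes. Neutrophil and monocyte markers (6) summed to 34.6 to 46.2 CPM in Het, 29.99 to 78.1 in KO, 39.2 to 258 under anti-gp120 and 123 to 401 under anti-IL34, with 0 of 6 called (edgeR, 0 also at unadjusted p under 0.05) and Ly6g at 0 in 2 isolates. None of the astrocyte, oligodendrocyte, choroid plexus, microglia or heat-shock genes was at 0 in any library. The isolate of anti-gp120 animal 15 had the highest astrocyte sum of its arm, 18270.2 CPM. How far a changed mix of cells in the isolate takes part in the members' levels was not tested.

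**Figure D4:**
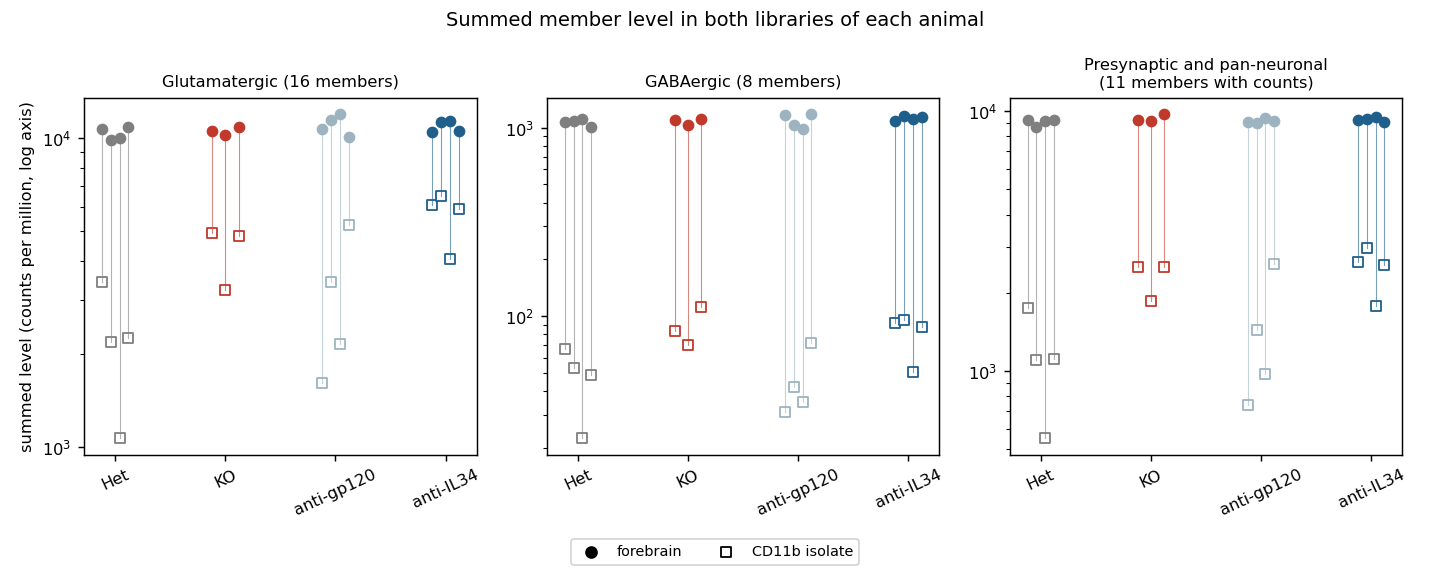
Summed level in CPM (y axis, log axis) of the glutamatergic, GABAergic and shared neuronal members in the forebrain library (filled circles) and the isolate (open squares) of each animal, joined by a line, in the 4 arms (x axis). Forebrain circles are level across arms, isolate squares are mostly higher in KO and anti-IL34, and for the glutamatergic sum 1 Het isolate lies among the KO ones and 1 anti-gp120 isolate among the anti-IL34 ones.

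In KO isolates, 33 of 34 members tested were at higher levels than in Het isolates and 0 passed the adjusted threshold. The median log2 fold change was 0.96, against 0.02 over all genes, and edgeR called 0.143% of 18185 genes higher. At an unadjusted p under 0.05 there were 14 members, against 14.4% of genes, and DESeq2 called 9, against 8.82% of genes higher by that tool. The arms did not overlap for 17 of 34 members, against 19.3% of genes. Without the isolate of Het animal 1, which was the highest of its arm, edgeR called 24 members, against 15.7% of all genes called higher in that fit. Without that of Het animal 21, the lowest, it called 14, against 6.85% of genes. The number of genes called thus moved over the whole table and not for the members alone. Left out in turn, each of the other 5 libraries gave 0 members and 0% of all genes, so these fits say nothing of the members.

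Tbr1 was at 12.9, 7.52, 4.88 and 7.75 CPM in Het and 18.9, 12.1 and 18.5 CPM in KO animals, where only Het animal 1 reached the KO range (log2 fold change 1.05, SE 0.344, 95% interval 0.23 to 1.86, adjusted p = 0.113, edgeR). Vamp2 was at 312, 207, 124 and 229.6 CPM in Het and 453, 341 and 491 CPM in KO animals, with every KO animal above every Het animal (log2 fold change 0.98, adjusted p = 0.118, edgeR). Gabrb2 had KO values above all Het values too, at 7.67, 7.69, 2.42 and 6.14 CPM in Het and 12, 10.6 and 14.6 CPM in KO animals (log2 fold change 1.03, adjusted p = 0.134, edgeR). Homer1, a scaffold gene that neuronal activity induces, was the 1 member with a negative sign (log2 fold change -0.02, 95% interval -0.67 to 0.62). Vip was left out of this fit by the filter on low counts, and its isolate values are given above.

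Under anti-IL34, 35 of 35 members had positive signs in isolates and 0 passed the adjusted threshold. The median was 0.84, against 0.06 over all genes, and 0.0228% of 17570 genes were called higher by edgeR. There were 10 members at an unadjusted p under 0.05, against 10.6% of genes, and DESeq2 called 1, Gad1, against 2.72% of genes called higher by that tool. The arms overlapped for all 35 members, while 3.83% of genes were higher without overlap. Without the isolate of anti-gp120 animal 15 the count of calls was 29 (edgeR), against 20.9% of all genes called higher in that fit, and the arms did not overlap for 28 of 35 members, against 19.4% of genes. Leaving out anti-IL34 animal 11, the female of its arm, gave 2 calls, Gad1 and Grin2a, against 0.247% of genes. Each of the other 6 libraries gave 0 members when left out, against 0 to 0.0328% of genes in either direction, so these fits say nothing of the members.

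Gad1 had the smallest p, at 10.7, 14.7, 12.9 and 23.0 CPM under anti-gp120 and 36.4, 37.5, 19.6 and 28.6 CPM under anti-IL34, and anti-gp120 animal 15 lay above anti-IL34 animal 11 (log2 fold change 1.00, SE 0.319, 95% interval 0.27 to 1.74, adjusted p = 0.134, edgeR). Shank3 was at 77.1, 162, 120.1 and 203 CPM under anti-gp120 and 228, 294, 203 and 253 CPM under anti-IL34, which are also parted but for these 2 animals (log2 fold change 0.86, adjusted p = 0.158, edgeR). Snap25, a SNARE protein of the presynaptic membrane, was at 38.6, 59.3, 51.7 and 139 CPM under anti-gp120 and 136, 159.7, 94.6 and 129 CPM under anti-IL34 (log2 fold change 1.04, adjusted p = 0.184, edgeR). Anti-gp120 animal 15 held the highest control value for all 3 genes. Camk2a was at 881, 2035, 1214 and 3167 CPM under anti-gp120 and 3745, 3893, 2455 and 3669.9 CPM under anti-IL34, and in 3 of 4 anti-IL34 animals and in anti-gp120 animal 15 its isolate level was above that in the same animal's forebrain. KO animals 3 and 24 had the same order. Forebrain and isolate levels are scaled apart, and with 1 scaling over all 30 libraries anti-IL34 animal 11 joined them, at 111% of its forebrain level of Camk2a.

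Averaged over both experiments, most members rose in the isolates. In the contrast over 15 isolates, 25 of 35 members were higher and 0 lower by edgeR, against 21% of 18732 genes higher, with a median log2 fold change of 0.87 against 0.05 over all genes. The glutamatergic genes gave 12 of 16, the GABAergic genes 4 of 8 and the shared neuronal genes 9 of 11, with medians of 0.84, 0.76 and 0.87. The count was 32 without anti-gp120 animal 15, against 26.6% of all genes called higher in that fit. It fell below 17 without KO animal 24 (7 members), KO animal 3 (10), anti-gp120 animal 1 (10), anti-gp120 animal 8 (11), anti-IL34 animal 10 (15) or anti-IL34 animal 24 (15), and in these 6 fits 10.2 to 13% of all genes were called higher.

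All 6 genes of glutamatergic identity rose, with log2 fold changes of 0.81 to 1.05. Tbr1 (1.94-fold, 95% interval 1.3 to 2.90, adjusted p = 0.0166, edgeR) was at 5.97, 11.0, 7.63 and 20.2 CPM under anti-gp120 and 21.8, 26.3, 16.5 and 19.6 CPM under anti-IL34, after the genotype values given above. Nrgn, the calmodulin-binding protein neurogranin of dendritic spines, was at 207, 128, 59.7 and 149.5 CPM in Het and 309, 219 and 370.1 CPM in KO animals, which do not overlap. It was at 87.2, 225, 130.1 and 341 CPM under anti-gp120 and 380.5, 455, 271 and 333 CPM under anti-IL34, which overlap through anti-gp120 animal 15 (2.03-fold, adjusted p = 0.0205, edgeR). Neurod2, Slc17a7, Camk2a and Neurod6 rose by log2 fold changes of 1.05, 0.90, 0.96 and 0.81.

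Of the 7 glutamate receptor subunits, 4 rose: Grm5, Gria2, Gria3 and Grin1. Grm5, the metabotropic receptor that couples to phospholipase C, was at 22.8, 17.2, 5.86 and 15.7 CPM in Het and 31.2, 31.9 and 32.5 CPM in KO animals, which do not overlap, and at 9.45, 13.9, 11.2 and 26.8 CPM under anti-gp120 and 23.9, 30.4, 18.7 and 29.0 CPM under anti-IL34, which do (1.89-fold, adjusted p = 0.0202, edgeR). Grin2a, Grin2b and Gria1, with log2 fold changes of 0.69, 0.71 and 0.58, did not pass (adjusted p of 0.0561, 0.0876 and 0.105, edgeR). Among the scaffolds, Shank3 (1.72-fold) and Dlg4 (1.83-fold) rose. Shank3 was at 163, 128, 58.9 and 107 CPM in Het and 219.5, 158 and 204 CPM in KO animals, where Het animal 1 lay just above KO animal 6. Homer1 had a log2 fold change of 0.01 with a 95% interval of -0.30 to 0.32, the value nearest to 0 of all members in this contrast. Its isolate level was 20.8% to 44.2% of forebrain in Het, 23.9% to 33.6% in KO, 21.8% to 30.4% under anti-gp120 and 25.4% to 39.2% under anti-IL34. Dlg4, for comparison, went from 24.2% to 63.7% in Het to 65.3% to 95.6% in KO and from 30.9% to 127% under anti-gp120 to 78.3% to 124% under anti-IL34.

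Of the 8 GABAergic genes, the 2 decarboxylases Gad1 (1.97-fold) and Gad2 (1.90-fold), the vesicular transporter Slc32a1 (1.85-fold) and Gabrb2 (1.75-fold) rose. Gad1 had the smallest p of all members in this contrast (log2 fold change 0.98, SE 0.265, adjusted p = 0.0142, edgeR) and was at 26.7, 17.5, 7.65 and 20.9 CPM in Het and 29.7, 26 and 48.8 CPM in KO animals. The 4 peptide and calcium-buffer markers of interneuron classes did not pass: Sst 0.67, Pvalb 0.72, Npy 0.48 and Vip 0.20 as log2 fold changes, with adjusted p of 0.0596, 0.105, 0.393 and 0.662 (edgeR). These are low in isolates: Pvalb was at 1.67, 0.954, 0.596 and 1.00 CPM in Het and 1.63, 1.62 and 3.06 CPM in KO animals, and Vip at 0.244, 0.185, 0.252 and 0.437 CPM under anti-gp120 and 0.474, 0.461, 0.380 and 0.479 CPM under anti-IL34. Npy was at 6.28, 1.11, 1.32 and 5.42 CPM under anti-gp120 and 10.5, 3.25, 3.60 and 3.05 CPM under anti-IL34, where anti-IL34 animal 2 and anti-gp120 animals 1 and 15 were the high ones. Intervals were -0.48 to 1.44 for Npy and -0.57 to 0.97 for Vip, so a difference of the size seen for Gad1 was not excluded for Npy.

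Among the presynaptic genes, Stx1a, Vamp2, Snap25, Syn1 and Syp rose and Syt1 did not pass (log2 fold change 0.75, adjusted p = 0.0561, edgeR). Stx1a, a SNARE protein of the release site, was at 55.3, 44.1, 25.4 and 44.1 CPM in Het and 84.3, 58.2 and 83.3 CPM in KO animals and at 28.8, 58.1, 39.5 and 76.5 CPM under anti-gp120 and 89.2, 101, 63.3 and 73.6 CPM under anti-IL34 (1.70-fold, adjusted p = 0.0177, edgeR). Vamp2 under the antibodies was at 163, 311, 189 and 506 CPM under anti-gp120 and 539, 599.9, 354 and 493 CPM under anti-IL34 (1.83-fold, adjusted p = 0.0202, edgeR). Both genes had KO values above all Het values and antibody arms that overlapped. Rbfox3, a splicing regulator of mature neurons known as NeuN, was at 28.7, 20.6, 8.49 and 18.6 CPM in Het and 44.5, 30.5 and 46.9 CPM in KO animals and at 14.6, 29.9, 17.5 and 45.5 CPM under anti-gp120 and 56.6, 55.8, 36.5 and 52.2 CPM under anti-IL34 (2.00-fold, adjusted p = 0.0160, edgeR). Map2 was at 943, 533, 283 and 570.1 CPM in Het and 1374, 1028 and 1302 CPM in KO animals, and Nefl and Nefm rose as well. Chl1, the member called in KO forebrain, was at 38.2, 17.3, 10.4 and 21.2 CPM in Het and 41.5, 44.6 and 41.6 CPM in KO animals in isolates and did not pass in this contrast (log2 fold change 0.77, adjusted p = 0.0609, edgeR).

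**Figure D5:**
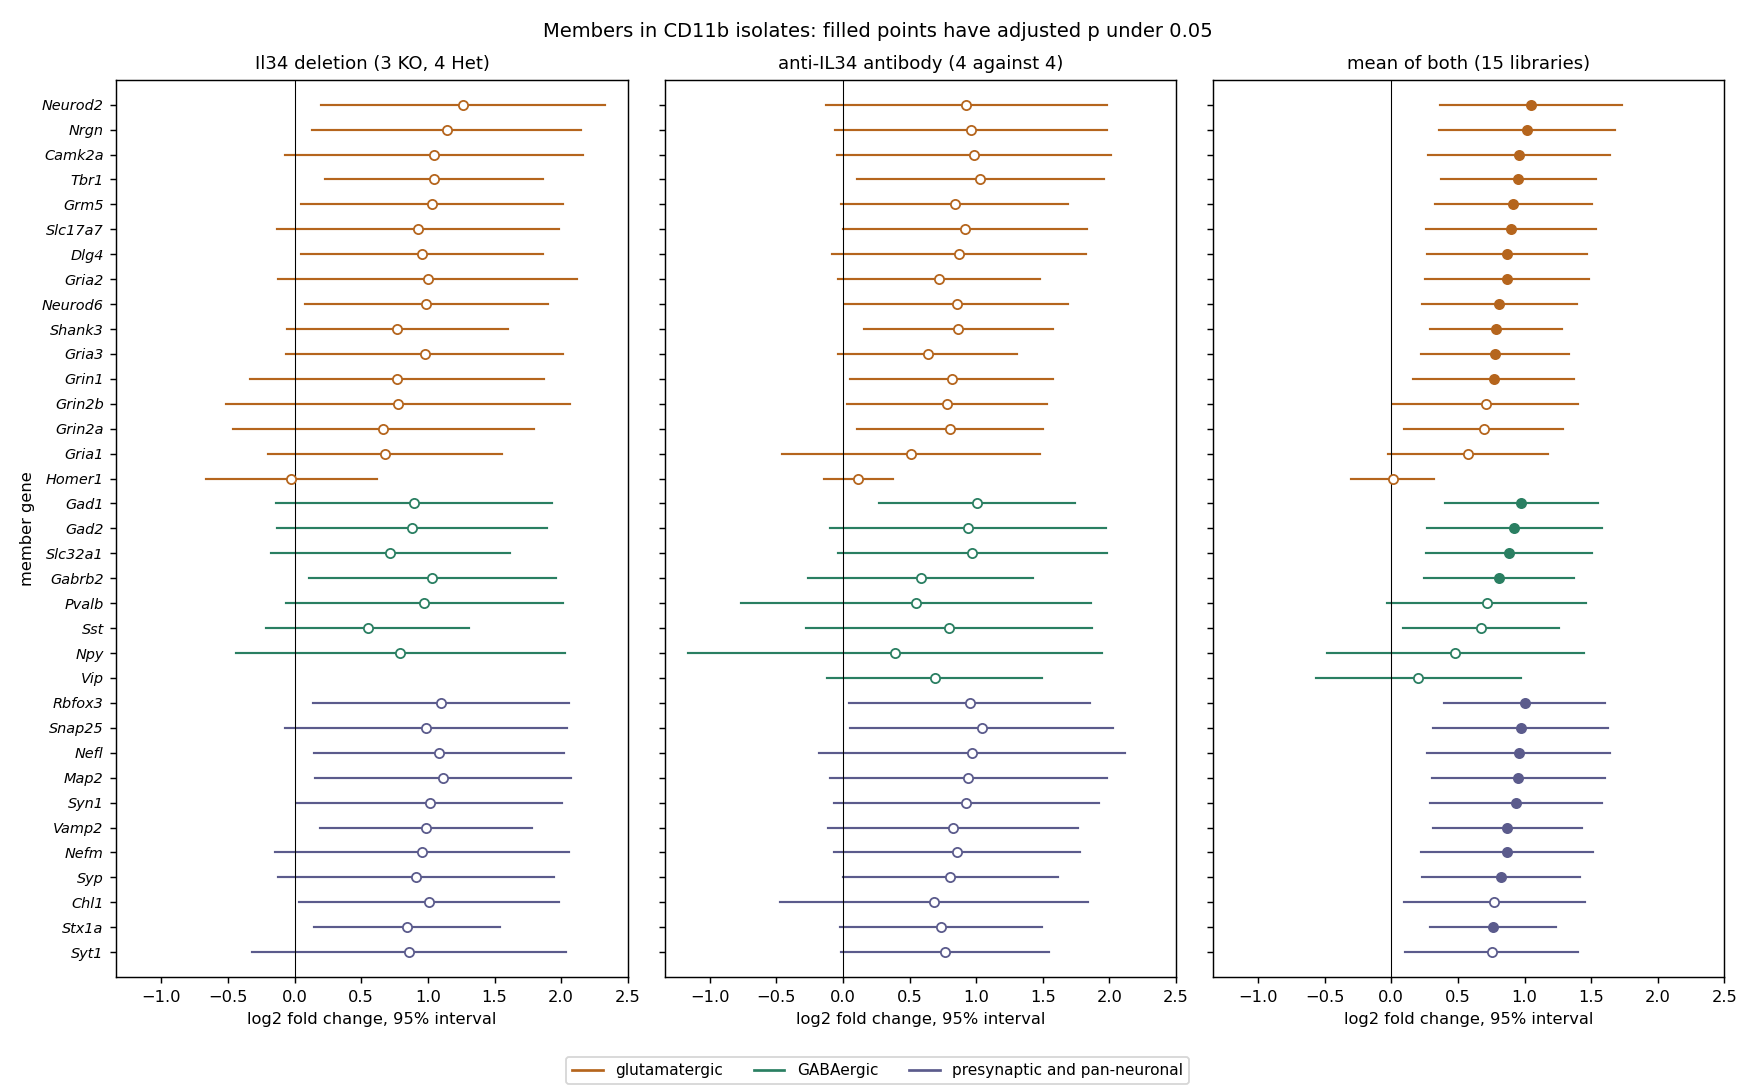
Log2 fold change with its 95% interval (x axis) of each member (y axis) in CD11b isolates for the deletion (left), the antibody (middle) and the mean of both over 15 libraries (right), coloured by class. No point is filled in the left and middle panels, and 25 of 35 are filled on the right, while Homer1 sits at 0.01.

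Whether a member moved differently in isolates and forebrain was tested as an interaction within each experiment. The forebrain and isolate libraries of an animal entered these fits as separate samples. The deletion effect in isolates minus that in forebrain had a median log2 of 0.95 over 35 members, with 34 positive signs, and edgeR called 0 members, against 2.98% of 20107 genes. At an unadjusted p under 0.05 there were 15 members, against 31% of genes, and DESeq2 called 5 of 35, against 21.2% of genes by that tool. For the antibody the median was 0.84, with 35 positive signs and 0 calls by edgeR, against 0.0924% of 18399 genes. Here 15 members had an unadjusted p under 0.05, against 21.1% of genes, and DESeq2 called 0, against 7.32% of genes. Without Het animal 1 the deletion gave 23 calls, against 28.5% of all genes in that fit, and without Het animal 21, 17, against 16.3%. Without anti-gp120 animal 15 the antibody gave 30, against 29.9% of genes, and without anti-IL34 animal 11, 1, against 0.748%. The deletion effect minus the antibody effect in isolates was called for 0 of 35 members (edgeR, 0 also at unadjusted p under 0.05 and by DESeq2), against 0% of genes, and its intervals were wide, from -2.45 to 2.44. In isolates the summed GABAergic level per 100 CPM of summed glutamatergic level was 1.96 to 2.42 in Het, 1.69 to 2.33 in KO, 1.23 to 1.93 under anti-gp120 and 1.24 to 1.52 under anti-IL34, and each loss arm overlapped its control arm.

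Wider lists of neuronal genes gave no call in forebrain. Of 19 further glutamatergic genes tested, 18 GABAergic, 14 presynaptic and 14 axonal or adhesion genes, 0 passed in forebrain in the deletion, the antibody or the mean contrast (edgeR). Over all genes, 0.00517% were called higher and 0.615% lower in the deletion, 0.717% in the antibody and 1.28% in the mean contrast. With shares this low, 0 calls lie near the background. L1cam, the founding member of the family to which Chl1 belongs, had a log2 fold change of 0.16 in KO forebrain (adjusted p = 0.206, edgeR). In the mean contrast over isolates, 16 of 19 glutamatergic genes rose and 1 fell, and 13 of 18 GABAergic, 12 of 14 presynaptic and 12 of 14 axonal or adhesion genes rose, against 21% of all genes called higher. The gene that fell was Tle4, a transcriptional corepressor of deep-layer cortical neurons (log2 fold change -0.40, adjusted p = 0.0264, edgeR). Glutamatergic genes among those with the smallest p were Bhlhe22, a transcription factor (0.89), and Slc17a6, a vesicular glutamate transporter (1.12), as log2 fold changes. Among GABAergic genes these were Dlx1 and Dlx2, transcription factors of interneurons (1.26 and 1.19), and Adarb2, a marker of caudal interneurons (1.24). Nrxn3, a neurexin, had the smallest p of the presynaptic genes (1.19), Rab3a also rose (0.80), and L1cam (0.62), Dcx (1.22) and Stmn2 (0.88) led the axonal and adhesion genes. Gphn, which encodes the inhibitory scaffold gephyrin, had a log2 fold change of -0.18 (adjusted p = 0.312, edgeR). Tle4, Gphn and the forebrain value of L1cam were chosen after their values were seen. The median of the wider GABAergic list, 0.85, lay next to that of the wider glutamatergic list, 0.86.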

How the data were processed

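RNA sequencing (SMART-Seq v4, per the labels' protocols) was done on 30 libraries of 15 mice. The submitters' processing notes name STAR 2.7.5c, featureCounts 1.6.3, R 4.4.0 and GRCm38, without their roles. The authors deposited a table of raw counts per gene and library, with symbols and a gene length, a table of TPM and a sample sheet with the animal number, which matched the labels for 30 of 30 libraries. Only counts were tested, and 6 count and 6 TPM columns carried no labelled sample and were not used. Levels are CPM computed here from the deposited counts.

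Each comparison was fitted over all genes passing filterByExpr with edgeR 4.0.16 in R 4.3.3 (TMM, quasi-likelihood F test, sex as covariate, Benjamini-Hochberg adjustment, threshold 0.05). The 4 arm comparisons used 1 tissue of 1 experiment, the tissue interactions both tissues of 1 experiment, and the mean and difference of the deletion and antibody effects all 15 libraries of a tissue. The code was also run on simulated counts with the same spread setting for every gene and tissue. That setting does not follow the wider spread of the isolates, so the run says nothing of how well the model suits them. Alternatives were RLE size factors, DESeq2 1.42.0, no filter on low counts, no sex term, leaving out each animal in turn, a fit over 15 libraries, and the animal as a block where both tissues entered. A scaling over all 30 libraries was added after seeing the data.

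Forebrain and isolate came from the same animal. The correlation of their deviations from the arm means was 0.0633 to 0.243 over 17741 genes in 15 animals, and 12 of 15 were over 0.1. For 8 of 15 forebrain libraries, the isolate of the same animal was the best match. Of 42 pairs of libraries within a group none held identical values, and chi-square divided by its degrees of freedom was at least 5.84. Every arm is a set of separate mice.

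The members and lists were chosen with earlier results of these data known. Values by animal are given for members past the threshold (the 8 with the smallest p where there were more), for the member with the smallest p of each class in the 4 arm comparisons, and for the 4 most and 4 least depleted in isolates. Of the wider lists, up to 3 genes past the threshold are named by p, and some that this rule takes are not reported here. Promoter sequences come from RefSeq (GRCm38.p6).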

Additional observations from a re-analysis of the deposited data

Results flagged for a closer look

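In 4 of 150 groups of 4 libraries, 1 animal stood further from the others than Dixon's 95% critical value allows, and chance gives about 1 in 20 groups. In isolates, anti-IL34 animal 11 was the lowest of its arm for Camk2a, at 2455 CPM, and for Grin2a, at 8.30 CPM. Its isolate also had the lowest summed level of the members in its arm. Npy in the isolate of anti-IL34 animal 2 was at 10.5 CPM, the highest of its arm. Vamp2 in the forebrain of anti-gp120 animal 15 was at 764 CPM, the lowest of its arm, while the isolate of this animal held the highest Vamp2 level among the anti-gp120 isolates.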

How the results depend on the processing

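No called member changed direction under any alternative run. Medians over the members that lay near 0 did cross it when 1 animal was left out, from -0.00079 to 0.07 in KO forebrain, -0.02 to 0.02 in anti-IL34 forebrain and -0.16 to 0.44 for deletion minus antibody in isolates (log2). Counts of called members moved by more than 1.5 times as follows. In KO forebrain the count of 1 became 2 with DESeq2 (0.945% of all genes called in that fit), 2 without the filter on low counts (1.24%) and 0 in the fit over 15 libraries, and leaving out 1 animal gave 0 to 1. In KO isolates 0 became 9 with DESeq2 (22.8%) and 7 without the filter (6.78%). Leaving out 1 animal there gave 0 to 24 (0 to 31.5%). In anti-IL34 isolates 0 became 1 with DESeq2 (10.6%), and leaving out 1 animal gave 0 to 29 (0 to 40.4%). The tissue interaction of the deletion, 0, became 5 with DESeq2 (21.2%) and 6 without the filter (4.82%), and leaving out 1 animal gave 0 to 23 (0 to 28.5%). That of the antibody, 0, became 20 without the filter (4.15%), and leaving out 1 animal gave 0 to 30 (0 to 29.9%). In the isolate arm comparisons and the interactions, the fits with 1 animal left out and 0 members called had 0 to 0.0328% of all genes called. Their 0 members thus say nothing of stability. The mean effect in forebrain, 0, became 1 without the filter (1.55%). The mean effect in isolates, 25, ranged from 7 to 32 with 1 animal left out. With the replicate block, the animal as its own control, the comparison of isolates with forebrain stayed at 35 called members. For the interactions it called 0 of 20107 and 0 of 18399 genes, so the 0 and 0 members called there say nothing of stability. The cause of these shifts was not tested. Each arm holds 3 or 4 mice, and the isolates within an arm differ by more than the forebrain libraries do. Vip in isolates rests on few counts.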
